A study of Mus musculus with 6 samples.

Results

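The glutathione S-transferases (GST), UDP-glucuronosyltransferases (UGT) and cytosolic sulfotransferases (SULT) are the main conjugation enzymes of the intestinal lining. Genes were taken as members where the array annotation gave a probe set a single symbol that begins with Gsta, Gstk, Gstm, Gsto, Gstp, Gstt, Gstz, Ugt1, Ugt2 or Sult1 to Sult5. This found 40 genes among the 18194 genes measured, read by 50 of the 45101 probe sets, and 8 of the 40 genes had more than 1 probe set. They comprised 20 GST, 8 UGT and 12 SULT genes. No Ugt1 gene was among them, because 3 probe sets carried several Ugt1a symbols at once. Together with 2 others they made up 5 family probe sets with several symbols, which were left out.

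Epithelium of the colon was compared on Affymetrix oligonucleotide arrays of the mouse genome between mice labelled vil-Cre-Bcl9-/-/Bcl9l-/- and mice labelled wildtype, all 12 weeks old and all of 129SvEv/C57BL/6/DBA/2 mixed background. Bcl9 and Bcl9l encode co-activators of beta-catenin, the effector of Wnt signalling, and the villin promoter of vil-Cre is active in intestinal epithelium. Knockout epithelium was read on 3 arrays (knockouts 1, 2 and 3), which hold pooled RNA of 3, 2 and 2 mice. Wild-type epithelium was also read on 3 (wild type 4, 5 and 6), with 3 mice to a pool. No Cre control was labelled among the wild-type arrays, so Cre and the loss of both co-activators cannot be told apart, nor can strain alleles that may differ between pools of mixed background.

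Conjugation makes small molecules more water-soluble and easier to export. GST enzymes attach glutathione to electrophiles such as products of lipid peroxidation, UGT enzymes attach glucuronic acid to steroids, bilirubin and plant phenols, and SULT enzymes transfer sulfate from the donor PAPS to phenols, catecholamines and sterols. In the gut these families form a barrier against dietary compounds and bacterial metabolites. Many of the genes are known targets of NRF2, which answers to electrophiles, of the aryl hydrocarbon receptor and of the pregnane X receptor.

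Of the 40 members, 36 matched a RefSeq promoter entry of GRCm38.p6 by symbol. The 250 bases before the annotated start are shown for 4 of the 6 members whose knockout and wild-type arrays did not overlap (Gsta2, Ugt2b1, Sult1d1 and Gstp1), and for Gsta3, an alpha-class gene whose difference had the opposite sign to that of Gsta2. Sequences run 5′ to 3′ on the strand of the gene, and capitals mark a match on either strand to TGACNNNGC, the core of the antioxidant response element bound by NRF2, or to GCGTG, the core of the xenobiotic response element bound by the aryl hydrocarbon receptor.
Gsta2, chr9:78347146-78347395, minus strand: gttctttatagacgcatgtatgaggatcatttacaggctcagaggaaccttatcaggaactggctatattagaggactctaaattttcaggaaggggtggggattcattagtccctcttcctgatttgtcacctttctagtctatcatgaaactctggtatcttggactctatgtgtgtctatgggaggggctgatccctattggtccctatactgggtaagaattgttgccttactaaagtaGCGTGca
Gsta3, chr1:21240335-21240584, plus strand: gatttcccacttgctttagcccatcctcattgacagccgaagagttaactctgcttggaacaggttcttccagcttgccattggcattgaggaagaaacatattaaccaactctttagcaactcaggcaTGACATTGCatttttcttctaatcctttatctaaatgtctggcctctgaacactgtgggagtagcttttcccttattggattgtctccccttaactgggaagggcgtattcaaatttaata
Ugt2b1, chr5:86926504-86926753, minus strand: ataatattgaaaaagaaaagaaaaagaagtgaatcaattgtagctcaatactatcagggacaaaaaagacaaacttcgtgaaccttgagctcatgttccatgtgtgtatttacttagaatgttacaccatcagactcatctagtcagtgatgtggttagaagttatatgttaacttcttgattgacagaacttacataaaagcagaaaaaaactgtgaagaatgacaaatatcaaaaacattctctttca
Sult1d1, chr5:87569007-87569256, minus strand: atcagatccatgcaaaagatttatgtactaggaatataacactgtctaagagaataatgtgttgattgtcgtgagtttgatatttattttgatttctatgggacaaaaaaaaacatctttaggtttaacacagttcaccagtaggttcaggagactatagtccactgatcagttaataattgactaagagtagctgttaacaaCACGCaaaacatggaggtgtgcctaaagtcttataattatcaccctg
Gstp1, chr19:4037913-4038162, minus strand: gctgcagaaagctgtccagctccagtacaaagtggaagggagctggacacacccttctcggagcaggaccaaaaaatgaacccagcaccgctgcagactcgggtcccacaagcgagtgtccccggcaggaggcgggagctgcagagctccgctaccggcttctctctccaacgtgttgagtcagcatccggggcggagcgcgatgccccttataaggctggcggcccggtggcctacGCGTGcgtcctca

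Gsta3 held the antioxidant core, beginning 121 bases before its start. Gsta2, Sult1d1 and Gstp1 held the xenobiotic core, beginning 7, 47 and 13 bases before theirs, and Ugt2b1 held neither. Over all 36 matched members, which had 47 promoter entries, the antioxidant core was found in 3 genes (Gsta3, Gstm5 and Gstm7), or 6.38% of their entries, against 10.2% of all 32851 entries. The xenobiotic core was found in 8 genes, or 19.1% of entries, against 28.2% of all. CTTTGAT, a TCF/LEF site of the Wnt pathway, was found in Sult2a8 alone, or 2.13% of entries, against 3.21% of all. The 3 motifs do not overlap each other in the sequences shown, and a match is a description of these letters only.

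Across the series, array medians ran from 5.44 to 5.58 on the log2 scale, and the arrays correlated with each other at 0.975 to 0.99. All 10 epithelial markers, such as Epcam and Vil1, and all 8 goblet cell markers read above the array median on every array. The B and plasma cell markers (9 of 10 measured) stood 2.69 above their 6-array means in wild type 6. In the other arrays they stood between -0.90 and -0.34. Wild type 6 also had the highest levels of fibroblast (0.93), smooth muscle (0.56) and macrophage and mast cell markers (0.46). The same held for T cells and intraepithelial lymphocytes (0.79). Its array median was the highest (5.58) and its array weight from limma the lowest (0.511). Bcl9 read 7.09, 7.16 and 7.58 across knockouts 1 to 3 and 7.42, 6.85 and 7.24 across wild type 4 to 6. Bcl9l read 8.08, 8.27 and 8.12 across the former and 7.84, 7.76 and 8.21 across the latter. The sources used here do not say whether their probes lie in the deleted parts, so these overlapping readings are no check of the labels.

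Conjugation enzymes read above the array median about as often as all genes did. Of the 40 members, 24 lay above the array median on all 6 arrays (60.0%, against 56.4% of all genes), 14 lay below it on all 6, and Gsta2 and Ugt2b5 lay above it on 1 array. By family, 17 of 20 GST, 2 of 8 UGT and 5 of 12 SULT genes were above the median on every array. The GST genes below it throughout were Gsto2 and Gstt4. Among the UGT genes only Ugt2b34 and Ugt2b35 were above it throughout, and among the SULT genes Sult1a1, Sult1b1, Sult1c2, Sult1d1 and Sult2b1. Probe sets differ in how strongly they bind, so a value is read against its array and not against that of another gene. No detection call was used, so the dim members are not shown to be above background.

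**Figure D1:**
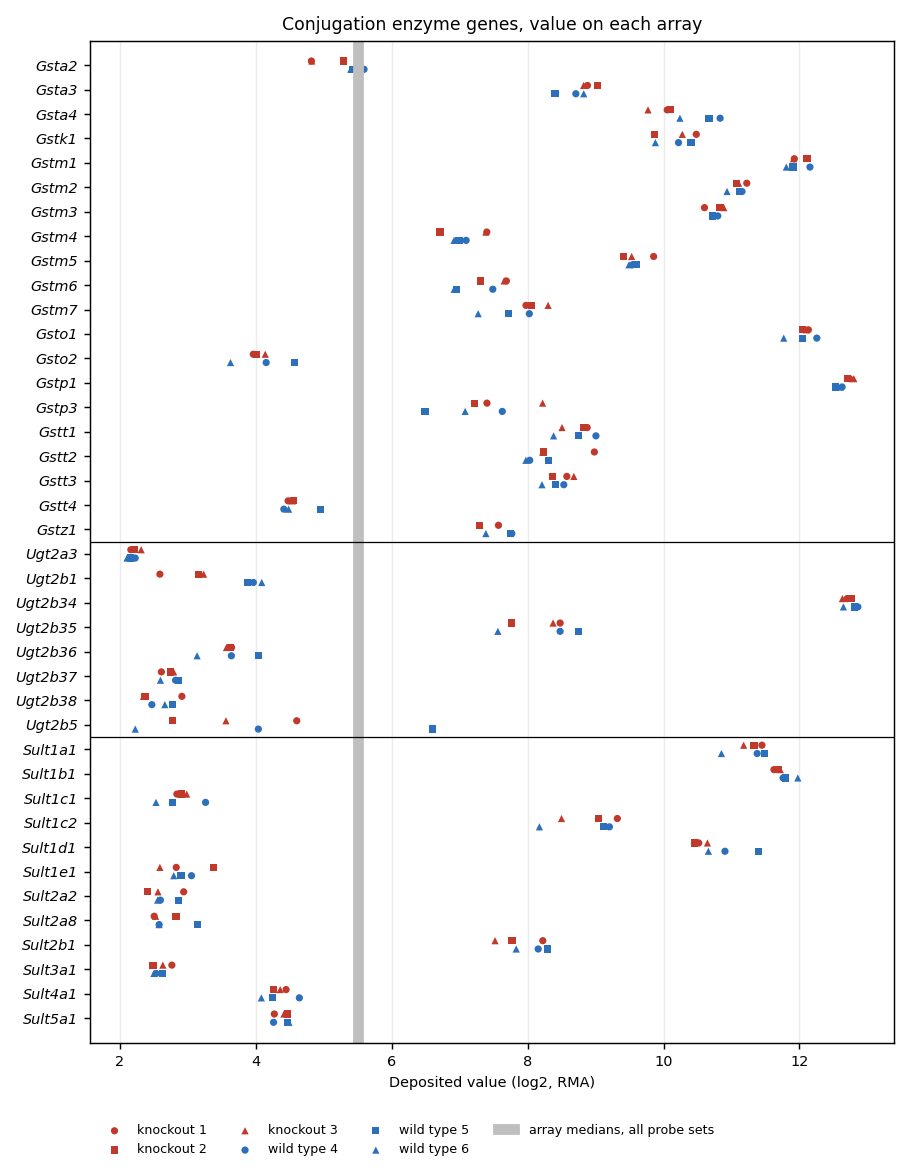
Deposited log2 value of each of the 40 conjugation enzyme genes (rows) on each of the 6 arrays, with knockouts in red and wild type in blue and 1 marker shape per array. The grey band spans the array medians (5.44 to 5.58), and 24 genes lie to its right on all arrays; values of different genes are not comparable with each other, and arrays of both genotypes overlap for 34 genes.

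In wild type, the brightest genes of several symbol groups were read with an SD of 0.05 to 0.31. Gstp1, the pi-class enzyme, read 12.59 ± 0.05 and the mu-class Gstm1 11.96 ± 0.18. Gsto1, an omega-class thioltransferase, read 12.02 ± 0.24, and Gstk1, the kappa-class enzyme of mitochondria and peroxisomes, 10.17 ± 0.27 (SD, n = 3 each). The theta-class Gstt1 read 8.71 ± 0.31, and Gstz1, the maleylacetoacetate isomerase of tyrosine breakdown, 7.63 ± 0.21. Ugt2b34 read 12.77 ± 0.11 and Sult1b1, a sulfotransferase of phenols and thyroid hormones, 11.84 ± 0.12. The liver enzymes Sult2a2 and Sult2a8, the oestrogen sulfotransferase Sult1e1 and Sult3a1 had means of 2.55 to 2.91 in wild type, and Sult4a1, known from brain, and Sult5a1 also lay below the array median throughout.

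Knockout was compared with wild type by limma, and no conjugation enzyme passed. Over all genes 0.0% were called higher and 0.0% lower, and of the 40 members 0 were called higher and 0 lower at an adjusted p under 0.05 (smallest adjusted p 0.953). An unadjusted p under 0.05 was reached by 3 members, or 7.5%, against 4.71% of all genes. All 3 read lower in the knockouts (Ugt2b1, Gsta4 and Gsta2, where 2.02% of all genes did so in that direction), and 0 read higher (2.69% of all genes). Of all 50 member probe sets tested alone, 0 passed (0.0% of all probe sets in each direction) and the same 3 genes gave the 3 with an unadjusted p under 0.05, or 6.0%, against 4.16% of all 45101. The median difference of the members, knockout minus wild type, was 0.025, with 23 above and 17 below 0. For all genes it was 0.0096, with 9493 above and 8701 below 0. Without wild type 6 that of the members was -0.095, with 13 above and 27 below 0. The split of all genes was not counted in that fit. Wild type 6 was the lowest array for 30.8% of all genes, so this shift cannot be read as one of the members. The 95% interval reached 0.43 either side of the difference for the median member, and it held 0 for 37 of the 40. Where RNA of a gene read lower, fewer cells of a type and less RNA per cell cannot be told apart in these bulk samples.

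Markers of several other cell types read lower in the knockouts, and none of them passed the test over all genes (limma). All 8 tuft cell markers had a difference below 0 (median -0.53), though only 1 of the 8 read above the array median on all arrays. Knockouts lay entirely below wild type for 4 of the 8, where 4.83% of all genes did so. Among these were Dclk1 at -1.33 (SE 0.33) and Alox5ap at -1.01 (SE 0.30), both with an adjusted p of 0.953 (limma). Relative to each gene's 6-array mean their median level was -0.04, -0.31 and -0.14 in knockouts 1, 2 and 3 and 0.14, 0.40 and 0.01 in wild type 4, 5 and 6. All 10 markers of T cells and intraepithelial lymphocytes (median -0.61), 7 of 8 fibroblast markers (-0.43) and all 9 B and plasma cell markers (-1.12) were also below 0. Without wild type 6 those medians were -0.21, -0.19 and -0.06, while that of the tuft cell markers was -0.67, and -0.34 without wild type 5. The 10 epithelial markers had a median of 0.02, the 8 goblet cell markers -0.01 and the 10 absorptive colonocyte markers -0.11. Knockouts also lay entirely below wild type for 4 of the 8 fibroblast markers and 2 of the 10 of T cells and intraepithelial lymphocytes. The same held for 1 B and plasma cell marker and 1 goblet cell marker. Of the 8 macrophage and mast cell markers (median -0.11) 3 were above 0, with Cma1 at 1.47 (adjusted p 0.291, limma). Few markers of the lower lists read above the array median on all arrays. They were 2 of the 10 of T cells and intraepithelial lymphocytes, 2 of the 8 fibroblast markers and 1 of the 9 B and plasma cell markers. With no detection call, the dimmer markers are not shown to be above background. The part of these cell types in the differences of the conjugation enzymes was not tested.

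**Figure D2:**
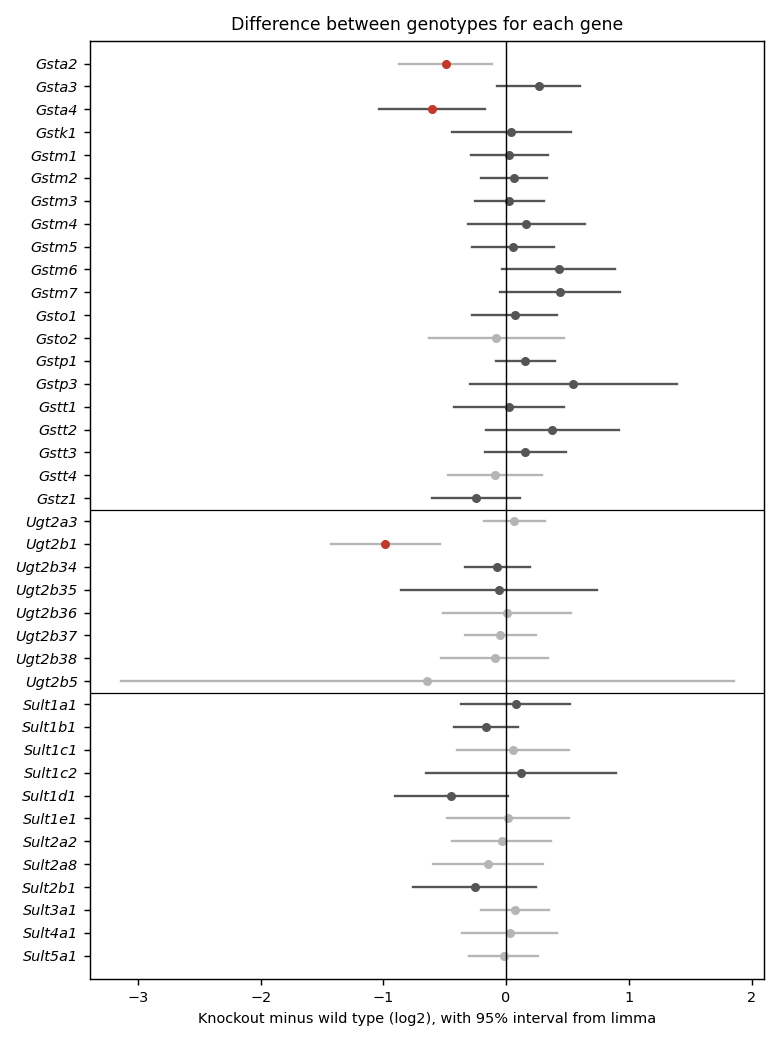
Knockout minus wild type (log2) for each of the 40 genes, with the 95% interval from limma. Dark bars are genes above the array median on all 6 arrays and pale bars the others, red points mark the 3 genes with an unadjusted p under 0.05 (Gsta2, Gsta4 and Ugt2b1), none of which passed over all genes, and the widest interval is that of Ugt2b5 (-3.14 to 1.86).

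The knockout and wild-type arrays did not overlap for 6 members, or 15.0%, where 10.3% of all genes did so. Knockouts were lower for 5 of them (12.5%, against 4.83% of all genes) and higher for 1 (2.5%, against 5.5%). The 5 were Gsta2, Gsta4, Ugt2b1, Sult1d1 and Sult1b1, and the other was Gstp1. When probe sets were averaged for each gene, 4 members were below and 2 above.

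Within the alpha class, Gsta4 conjugates 4-hydroxynonenal, a toxic product of lipid peroxidation. It read 10.05, 10.10 and 9.77 in knockouts 1, 2 and 3 and 10.83, 10.67 and 10.24 in wild type 4, 5 and 6. The lowest wild-type array, wild type 6, lay just above the highest knockout. The difference was -0.61 (SE 0.18, 95% interval -1.04 to -0.17), or 1.52-fold, with an adjusted p of 0.953 (limma), and it ran from -0.78 to -0.48 when each array was left out in turn. Its unadjusted p was under 0.05 in every one of those fits.

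Gsta2, a related enzyme that also reduces organic hydroperoxides, was dim. Its readings were 4.82, 5.29 and 4.82 in the knockouts and 5.59, 5.42 and 5.40 in wild type, so that all arrays but wild type 4 lay below their array median. Knockout 2 came close to the wild-type arrays. The difference was -0.49 (SE 0.16, adjusted p 0.953, limma). It ran from -0.65 to -0.41 when each array was left out in turn, and its unadjusted p was not under 0.05 without knockout 1, knockout 3 or wild type 4. The probe set that reads Gsta2 together with Gsta1 and Gm3776 carried several symbols and was not analysed here. In the RefSeq gene order Gsta4 and Gsta2 lie near each other, with 5 other protein-coding genes between them.

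Gsta3, which detoxifies the epoxide of aflatoxin, did not share this direction. It read 8.88, 9.03 and 8.82 on the knockout arrays and 8.71, 8.40 and 8.83 in wild type. Wild type 5 was low and wild type 6 lay among the knockouts, so the genotypes overlapped. The difference was 0.26 (SE 0.14, adjusted p 0.953, limma), and the other Gsta3 probe set, of lower signal, differed by 0.023. Without wild type 5 the difference was 0.14. Whether Gsta3 and the other alpha-class genes differ from each other in their response was not tested.

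The mu class forms a run of 7 neighbouring genes with no other protein-coding gene between them (Gstm5, Gstm7, Gstm6, Gstm3, Gstm2, Gstm1 and Gstm4). All 7 had a difference above 0 (0.026 to 0.44), as had 6203 of the 10264 genes above the array median on all arrays. Only 5 of 7 did so after cyclic loess and 5 of 7 without wild type 6 or without knockout 2. Without probe sets that end in _x_at or _s_at, as those used for Gstm1 and Gstm3 do, 6 of 7 were above 0. For Gstm1, Gstm2, Gstm3 and Gstm5 the difference was at most 0.063. The other Gstm1 probe sets differed by -0.23, -0.0036 and 0.08, and the other Gstm3 probe set by 0.15.

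Gstm6 and Gstm7 had the largest differences of the class. Gstm6 read 7.69, 7.30 and 7.65 in the knockouts and 7.49, 6.95 and 6.92 in wild type. Gstm7 read 7.98, 8.06 and 8.30 against 8.02, 7.72 and 7.27. In both genes wild type 4 lay among the knockouts and wild type 6 was the lowest array. The differences were 0.43 (SE 0.19) and 0.44 (SE 0.21), each with an adjusted p of 0.953 (limma). Without wild type 6, the array with the high B cell and fibroblast levels, they were 0.33 and 0.24, and both were 0.62 without wild type 4, where each had an unadjusted p under 0.05 but did not pass over all genes (Gstm6 and Gstm4 had one without knockout 2). The part of those markers in the result was not tested. The other Gstm7 probe set, below the array median on all arrays, differed by 0.041.

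In the pi class, Gstp1 was the 1 member whose knockouts all lay above wild type. It read 12.74, 12.70 and 12.80 in the knockouts and 12.63, 12.54 and 12.60 in wild type. The separation was narrow, with the lowest knockout 0.074 above the highest wild-type array. The difference of means was 0.16 (SE 0.10, 95% interval -0.08 to 0.39), or 1.12-fold, with an adjusted p of 0.953 (limma). Its neighbour Gstp3 varied more, with 7.40, 7.22 and 8.22 in the knockouts and 7.63, 6.49 and 7.08 in wild type. Knockout 3 was highest and wild type 5 lowest, and the others overlapped. The Gstp3 difference, the largest above 0 of any member, was 0.55 (SE 0.36, adjusted p 0.953, limma) and was 0.25 without knockout 3, 0.26 without wild type 5 and 0.83 without wild type 4.

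In the other GST classes no gene had an unadjusted p under 0.05 (limma). Gsto1 differed by 0.07 (SE 0.14), Gstk1 by 0.04 (SE 0.20) and Gstt1 by 0.02 (SE 0.19). All 3 differences were smaller than the range within either genotype and turned sign without wild type 6. Gstz1 read 7.57, 7.29 and 7.30 in the knockouts and 7.77, 7.74 and 7.38 in wild type, with wild type 6 among the knockouts and a difference of -0.25 (SE 0.15), or -0.37 without wild type 6. Its unadjusted p was under 0.05 in that fit, after cyclic loess and with array weights (limma), but it did not pass over all genes. Gstt2 differed by 0.38 (SE 0.23). It read 8.98 in knockout 1, while the other 5 arrays read 7.97 to 8.31, and without knockout 1 the difference was 0.13.

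Ugt2b1, a glucuronosyltransferase best known from liver, had the largest difference among the members and the smallest unadjusted p. It read 2.59, 3.15 and 3.23 in the knockouts and 3.96, 3.88 and 4.09 in wild type. Every wild-type array lay above every knockout by at least 0.65, and knockout 1 was lowest. The difference was -0.99 (SE 0.19, 95% interval -1.43 to -0.54), or 1.98-fold, with an unadjusted p of 0.0012 and an adjusted p of 0.953 (limma). All 6 readings lay below the array median and are not shown to be above background. Without any 1 array it ran from -1.11 to -0.79.

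Ugt2b34, the UGT gene with the highest signal, read 12.70 ± 0.07 across knockouts against 12.77 ± 0.11 for wild type (mean ± SD, n = 3 per genotype). The difference was -0.07 (95% interval -0.33 to 0.19), and the other Ugt2b34 probe set differed by -0.035. Ugt2b35 differed by -0.06 (SE 0.34), with 8.48, 7.76 and 8.37 in the knockouts and 8.48, 8.75 and 7.56 in wild type. Of the 8 UGT genes 6 had a difference below 0 with the deposited scaling and after cyclic loess, but 3 of 8 without wild type 5. Ugt2b36, Ugt2b37, Ugt2b38 and Ugt2a3 were dim, with differences from -0.09 to 0.07.

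Ugt2b5 varied most of all members between arrays. It read 4.60, 2.77 and 3.56 in the knockouts and 4.04, 6.60 and 2.22 in wild type, a 20.7-fold range. Wild type 5 was high and wild type 6 low, with all knockouts between them. The difference was -0.64 (SE 1.05, 95% interval -3.14 to 1.86), and it was 0.51 without wild type 5. Of the other UGT genes, Ugt2b35, Ugt2b36, Ugt2b37 and Ugt2a3 also read lowest in wild type 6.

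Among the sulfotransferases, Sult1d1, which acts on catecholamines and phenols, read 10.52, 10.46 and 10.65 in the knockouts. Wild type read 10.90, 11.40 and 10.66, and wild type 6 lay only just above knockout 3. The difference was -0.45 (SE 0.20, 95% interval -0.91 to 0.02), or 1.36-fold, with an adjusted p of 0.953 (limma). It was -0.24 without wild type 5, whose reading stood apart, and -0.61 without wild type 6. The other Sult1d1 probe set differed by -0.33 but overlapped, with 9.11 in knockout 3 and 8.86 in wild type 6.

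Sult1b1 read 11.63, 11.70 and 11.72 in the knockouts and 11.76, 11.80 and 11.98 in wild type. Here wild type 6 was the highest array, and the knockouts ended just below wild type 4. The difference was -0.16 (SE 0.11, 95% interval -0.43 to 0.10, adjusted p 0.954, limma), and -0.10 without wild type 6. Sult1b1, Sult1d1 and Sult1e1 follow the Ugt2 genes in the RefSeq gene order, so that 11 members from Ugt2b34 to Sult1e1 form a run with 2 other protein-coding genes, Ugt2a1 and Ugt2a2, inside it. The run holds Ugt2b1, Sult1d1 and Sult1b1 of the 5 members with knockouts entirely below wild type, where 4.83% of all genes did so. Genotypes overlapped for the rest of the run (Ugt2b34, Ugt2b35, Ugt2b36, Ugt2b5, Ugt2b37, Ugt2a3, Ugt2b38 and Sult1e1). Their differences ran from -0.64 (Ugt2b5) to 0.07 (Ugt2a3).

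Sult2b1, which sulfates cholesterol, differed by -0.26 (SE 0.21), with 8.22, 7.77 and 7.52 in the knockouts and 8.15, 8.29 and 7.83 in wild type. Knockout 1 lay among the wild-type arrays, and the difference was -0.10 without knockout 3, -0.16 without wild type 5, -0.45 without knockout 1 and -0.39 without wild type 6. Sult1a1, the general phenol sulfotransferase, differed by 0.08 (SE 0.19) and Sult1c2 by 0.12 (SE 0.33). The 7 dim SULT genes differed by -0.15 to 0.07, and Sult3a1, Sult4a1 and Sult5a1 by 0.07, 0.03 and -0.02. Of the 12 SULT genes 6 were above and 6 below 0, and without wild type 6 only 2 were above.

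**Figure D3:**
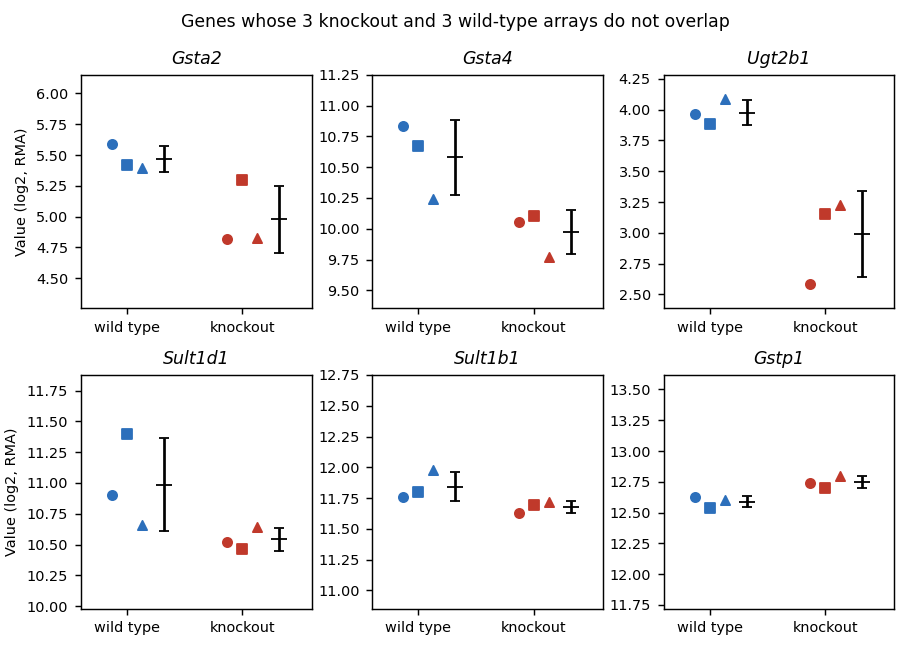
Log2 value on each array for the 6 genes whose genotypes did not overlap, with wild type in blue (circle, square and triangle for arrays 4, 5 and 6) and knockouts in red (1, 2 and 3); black bars give mean ± SD, n = 3. Every panel spans the same log2 range, and the difference of means is largest for Ugt2b1 (-0.99) and smallest for Sult1b1 (-0.16) and Gstp1 (0.16).

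For 36 of 40 members (90.0%, against 95.4% of all genes) the range within a genotype was wider than the difference between the genotype means. The pooled SD within genotypes had a median of 0.25 over the members, against 0.19 over all genes. Wild type 6 was the lowest array for 11 of the 24 brighter members (45.8%), against 33.9% of all genes above the array median on all arrays. Wild type 4 was the lowest for 0 of the 24 (0.0%, against 9.41% of those genes) and the highest for 6 (25.0%, against 14.9%). The median of these 24 genes relative to their 6-array means was -0.17 in wild type 6 and 0.13 in wild type 4, while the knockouts stood at 0.11, -0.04 and -0.02. For all genes above the array median the level in wild type 6 was -0.09.

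Sult1c2 and Ugt2b35 show the low readings of wild type 6. Sult1c2 read 8.17 there and 9.20 and 9.12 in wild type 4 and 5, with 9.32, 9.04 and 8.50 in the knockouts. Ugt2b35 read 7.56 there and 8.48 and 8.75 in the others. Gsta4 and Sult1d1 were also lowest in wild type 6 among the wild-type arrays, whereas Ugt2b1 and Sult1b1 were highest in it. The part of that array's B cell and fibroblast markers in these readings was not tested.

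**Figure D4:**
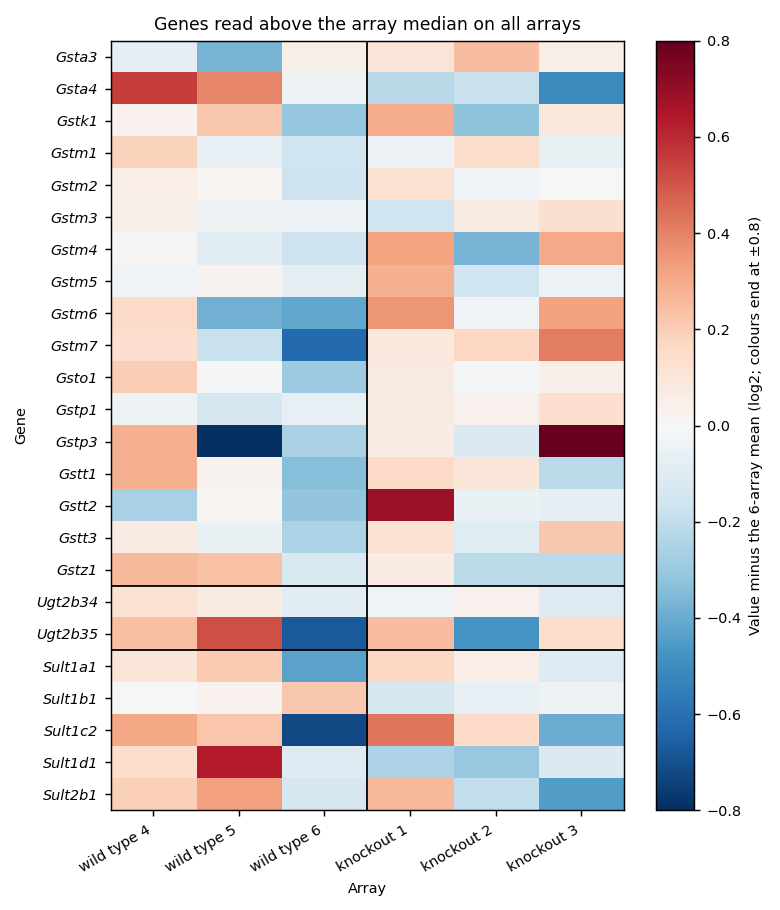
Value minus the gene's 6-array mean (log2, colour) for the 24 genes read above the array median on all arrays, with wild-type arrays left and knockouts right of the line. Wild type 6 is the lowest array in 11 of the 24 rows, and the rows of Gsta4, Sult1d1, Sult1b1 and Gstp1 are those in which the genotypes do not overlap.

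The genes around conjugation were taken from 6 lists with 59 measured members, and 0 passed over all genes. An unadjusted p under 0.05 was reached by 2 of them (3.39%, against 4.71% of all genes), Gusb and Abcc1, both above 0. Genotypes did not overlap for 4 of the 59 (6.78%, against 10.3% of all genes). Knockouts were higher for Gusb and Abcc3 and lower for Ugdh and Abcc5. Gusb, the lysosomal beta-glucuronidase that removes glucuronic acid, read 8.35, 8.13 and 8.41 in the knockouts and 7.74, 7.60 and 7.76 in wild type. The genotypes did not overlap, with a gap of 0.375 between them. The difference of means was 0.60 (SE 0.12, 95% interval 0.31 to 0.88), or 1.51-fold, with an adjusted p of 0.953 (limma). It ran from 0.54 to 0.68 without any 1 array. The other Gusb probe set differed by 0.51 but overlapped, with 7.73 in knockout 3 and 7.18 in wild type 4. Abcc1, an exporter of glutathione conjugates, differed by 0.40 (SE 0.16), and its other probe set by -0.0093.

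The regulators had no member at an unadjusted p under 0.05 among 16 measured, each read by its brightest probe set. Nfe2l2, which encodes NRF2, differed by 0.08 (SE 0.17), and Keap1, its inhibitor, by 0.31 (SE 0.15). Knockouts 1 and 2 were high for Keap1 (10.53 and 10.63) and the other 4 arrays read 10.09 to 10.14. Ahr, the aryl hydrocarbon receptor, differed by 0.06 (SE 0.15) and Nr1i2, the pregnane X receptor, by 0.27 (SE 0.13). Nfe2l2 and Ahr turned sign without wild type 6 (-0.08 and -0.10).

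The second, dimmer probe sets of these 4 regulators did not all read alike. That of Nfe2l2, below the array median on all arrays, read 5.33, 5.26 and 5.09 in the knockouts and 4.84, 5.00 and 4.74 in wild type, without overlap. It differed by 0.37 (SE 0.13), with an unadjusted p of 0.024 and an adjusted p of 0.991 over all probe sets (limma). The second Keap1 probe set did not overlap either and differed by 0.23 (SE 0.13), while those of Nr1i2 and Ahr differed by 0.26 and -0.03. By their brightest probe sets 0 of the 16 regulators were without overlap, against 10.3% of all genes. The share without overlap was not counted over all probe sets.

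The 11 measured oxidant response targets outside the families, which include Nqo1 and Gclc, had a median difference of -0.0057, with 4 above and 7 below 0 and none at an unadjusted p under 0.05. The split turned to 7 above and 4 below (median 0.036) when probe sets were averaged, and to 6 above and 5 below without wild type 4. The 4 aryl hydrocarbon receptor targets had a median of -0.042, and Cyp1a1, Cyp1a2 and Cyp1b1 lay below the array median on all arrays. The 16 genes listed for cosubstrate supply bear on the making, carrying and turnover of glutathione, UDP-glucuronic acid and PAPS, and include breakdown enzymes such as Chac1 and Chac2. They had a median of -0.026, and one of 0.032 when probe sets were averaged. The 9 exporters had a median of 0.20, with 7 above 0. The 3 measured of the 4 genes listed as deconjugating enzymes had one of 0.27, with all 3 above 0. These were Gusb at 0.60, Arsb at 0.27 and Arsa at 0.04. Averaging probe sets gave medians of 0.12 for the exporters and 0.044 for these 3. Of the exporters 5 of 9 were above 0 without knockout 2 (median 0.18) or without wild type 6 (median 0.13). The deconjugating enzymes had a median of 0.13 without knockout 3, and 2 of 3 were above 0 after cyclic loess, with array weights, without knockout 1 or without wild type 6.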

How the data were processed

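Per the labels' protocols, epithelium was released by EDTA and shaking (1.5 to 2 hours), pelleted without sorting and pooled across mice. From each pool 30 ng of RNA was amplified (NuGEN WT-Ovation pico). The deposited file holds log2 values from RMA, run by the authors per the submitters' processing notes with no version named; that they are log2 follows from their span (1.78 to 14.4). RMA quantile normalization makes arrays alike, so a shift of most genes would not be seen, and low-input amplification can read low transcripts unevenly.

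Symbols came from the platform annotation: 34958 probe sets had 1 symbol, 932 several and 9211 none, and 34754 of the first matched RefSeq (GRCm38.p6) by gene number. Each gene took its probe set of highest mean, with no filter on low values. limma 3.58.1 in R 4.3.3 (lmFit, eBayes, two-sided, no covariate) was run on all 18194 genes, and on all 45101 probe sets alone, with Benjamini-Hochberg adjustment at 0.05; the fit was tested on simulated data. The 3 arrays a genotype limit the precision, and p-values measure the spread between pools. Levels of lists are medians of values relative to each gene's 6-array mean. Summaries used Python 3.11.15.

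The members, lists and tests were chosen with earlier results of these data known. Named in full were the brightest member of each symbol group, members with an unadjusted p under 0.05 as a gene or probe set, the 5 largest differences each way, pathway genes with an unadjusted p under 0.05, and Nfe2l2, Keap1, Ahr and Nr1i2; Gusb and Abcc1 are the pathway genes so found. Other genes are named by counts or where a value turns on them.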

Additional observations from a re-analysis of the deposited data

How the results depend on the processing

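No paired analysis was possible because the genotypes share no replicate numbers. Under 12 other settings the members called over all genes stayed at 0 in each direction, as they did with each probe set tested alone. Ugt2b1 and Gsta4 kept their sign in every fit that held them (-1.11 to -0.79 and -0.78 to -0.48), and no value of the 22 named members and 6 named pathway genes passed. Members with an unadjusted p under 0.05 that read lower numbered 3, and 5 after cyclic loess or with array weights, 1 among brighter genes only, and 2 to 5 without any 1 array; those that read higher numbered 0, and 1 with an intensity trend and robust estimation and 0 to 2 without any 1 array. Non-overlapping members numbered 1 above and 5 below, with 2 above and 4 below for the mean over a gene's probe sets, 3 below among brighter genes only, and 2 to 9 above and 5 to 9 below without any 1 array, where 5 arrays separate more easily. Pathway genes with an unadjusted p under 0.05 numbered 2, then 1 for the mean of probe sets and 1 to 5 without any 1 array. The matching shares of all genes were not counted under the other settings. The counts there therefore cannot be read against all genes. The median of the members ran from -0.095 (without wild type 6) to 0.069 (without wild type 5). Without wild type 6, 2 of all genes were called higher and 1 lower, and 0 and 0 without each other array; the cause was not tested.

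Ugt2b5 turned sign without wild type 5 (0.51), and the other values that turned sign lay between -0.14 and 0.035. For the mean of probe sets they were Gstm1 (-0.031) and Sult4a1 (-0.067), and without _x_at and _s_at probe sets Gstm1 (-0.0036). After cyclic loess they were Gstk1 (-0.0042), Gstt1 (-0.045), Sult5a1 (0.020) and Ahr (-0.0062). With array weights they were Gstk1 (-0.015), Gstm1 (-0.038), Gsto1 (-0.0083), Gstt1 (-0.12), Sult4a1 (-0.058), Sult5a1 (0.023), Ahr (-0.016) and Nfe2l2 (-0.0082). Without any 1 array the ranges were -0.10 to 0.21 for Gstk1, -0.048 to 0.13 for Gstm1, -0.058 to 0.19 for Gsto1, -0.14 to 0.17 for Gstt1, -0.090 to 0.19 for Sult4a1, -0.093 to 0.035 for Sult5a1, -1.67 to 0.51 for Ugt2b5, -0.10 to 0.16 for Ahr and -0.082 to 0.19 for Nfe2l2. The filter for brighter genes left 24 members, so dim named members have no value there. With no detection call, the 14 members below the array median on all arrays, Ugt2b1 among them, are not shown to be above background.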
